A study of Mus musculus with 12 samples.

Results

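The comparison described here is that of Akp3 knockout with wild-type duodenum in mice that all received the pentapeptide IIAEK, named by its amino acids in one-letter code. Its members are the 6 arrays titled for that treatment, 3 of Akp3-/- mice, which the titles call IAP knockout, and 3 of wild-type mice, out of 12 arrays in all. All 12 mice were male and 7 weeks old at the start. Both genotypes were given IIAEK orally, 600 mg per kg of body weight each day, in sodium carboxymethylcellulose at 5 g/L. The other 6 arrays, 3 knockout and 3 wild type, came from mice given that vehicle alone, and are used here as a separate set of animals with the same genotype contrast. Dosing lasted 14 days per the titles and the series design, while source labels of the IIAEK samples give a longer unit of time. After a fast of 8 h the whole duodenum was taken, so each array mixes epithelium, muscle, immune cells and attached tissue. The sources used here do not say how the knockout was made, on which strain background, or whether littermates served as wild type. A germline knockout lacks the gene in every tissue and throughout life, so a difference in the duodenum need not arise there.

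Intestinal alkaline phosphatase is a brush border enzyme of the enterocyte that is also shed into the gut lumen. It removes phosphate groups from nucleotides, from dietary phosphate esters and from bacterial endotoxin, and it is known for roles in fat absorption and in keeping the gut barrier quiet towards bacteria. In the mouse, Akp3 encodes the form made mainly in the duodenum and Alpi a form made along more of the intestine. Alppl2 encodes the embryonic form, and Alpl the tissue-nonspecific form of bone, liver and kidney. IIAEK is a fragment of the bovine milk protein beta-lactoglobulin, and the labels describe it as cholesterol-lowering. The design asks how the duodenal transcriptome of peptide-treated mice depends on Akp3.

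Akp3, Alppl2 and Alpi lie side by side on chromosome 1, and their sequences upstream of the start site are shown because Akp3 is the deleted gene and the others are its closest relatives. The windows hold the 130 bases before the RefSeq start site, 5′ to 3′ on the gene's own strand, in build GRCm38.p6. They lie at chr1:87124824-87124953 on the plus strand for Akp3, chr1:87089929-87090058 on the minus strand for Alppl2 and chr1:87101607-87101736 on the minus strand for Alpi. Capitals mark the runs of 10 or more bases that all 3 windows share exactly.
Akp3: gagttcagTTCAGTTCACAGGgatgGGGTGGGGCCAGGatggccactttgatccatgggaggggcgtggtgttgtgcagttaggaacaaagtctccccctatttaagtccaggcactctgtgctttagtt
Alppl2: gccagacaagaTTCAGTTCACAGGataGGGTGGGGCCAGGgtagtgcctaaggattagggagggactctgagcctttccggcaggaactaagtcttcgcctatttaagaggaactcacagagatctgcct
Alpi: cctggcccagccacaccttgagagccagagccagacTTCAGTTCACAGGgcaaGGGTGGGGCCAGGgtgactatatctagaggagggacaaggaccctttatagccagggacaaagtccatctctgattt
Searched on both strands in windows of the same length, TTCAGTTCACAGG was found in 5 (0.0152%) and GGGTGGGGCCAGG in 13 (0.0396%) of the 32851 promoter windows of the RefSeq table. The letters TATTTAAG stood in the Akp3 and the Alppl2 window but not in that of Alpi, and in 0.444% of all windows. The matches describe letters and not binding sites.

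Akp3 was the named gene with the largest difference and the smallest p between the genotypes. A level is the log2 intensity minus that of the same array's 75th percentile, which therefore stands at 0, and differences are knockout minus wild type on the log2 scale. Akp3 had levels of -4.64, -4.42 and -4.90 in knockout mice under IIAEK, against 1.29, 1.05 and 2.72 in wild-type mice under IIAEK. The groups lay far apart, and the probe was well above background on 1 of the 3 knockout arrays and on all 3 wild-type arrays. Akp3 fell by 6.34 (SE 0.37, limma adjusted p = 2.72e-05), with means of -4.65 ± 0.24 in knockout and 1.69 ± 0.90 in wild type (SD, n = 3 each). Within the 2 array slides the difference was -5.70 on slide 1, with 2 arrays a genotype, and -7.62 on slide 2, with 1 array a genotype. A second Akp3 probe did not reach well above background in knockout mice and was at least 78.8-fold lower there, a bound set by the lowest signals well above background on those arrays. The sources used here do not say whether either probe falls inside the deleted stretch. In the vehicle-treated mice the Akp3 difference was -6.01.

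The neighbouring alkaline phosphatase gene Alppl2 was also lower in the knockout on every array, though not past the test over all features. Its levels were -2.13, -2.03 and -1.06 in knockout and -0.08, -0.47 and 1.56 in wild type under IIAEK. The groups did not overlap, and in both of them replicate 3, the one on slide 2, was the highest. The difference was -2.08 (SE 0.45, limma adjusted p = 1), with -1.81 on slide 1, -2.63 on slide 2 and -2.18 in the vehicle-treated mice, where the groups did not overlap either. Without the replicate 3 of either genotype the adjusted p of Alppl2 was 0.0293. Alpi, the more widely expressed intestinal form, had levels of 6.11, 6.41 and 6.74 in knockout and 6.65, 6.48 and 7.49 in wild type. These groups overlapped, with a difference of -0.45 (SE 0.26). Alpl lay between -3.48 and -3.17 in knockout and between -3.43 and -3.09 in wild type, a difference of -0.03. Over the 4 alkaline phosphatase genes the median difference was -1.27, against -0.01 over all features. The 1 called, against 0.00766% of all features, was the deleted gene Akp3 itself. Over the other 3 genes the median was -0.45.

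**Figure D1:**
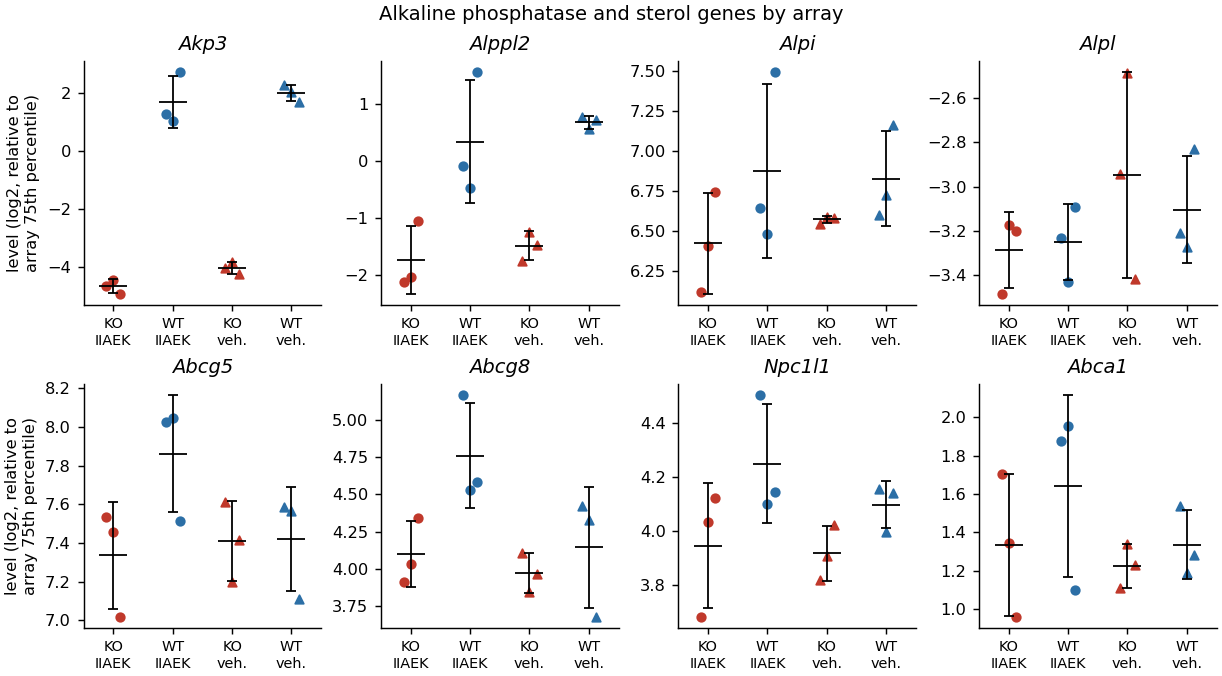
Level of 4 alkaline phosphatase genes (top) and 4 sterol transport genes (bottom) on each array, in log2 relative to the array's 75th percentile. Red is knockout and blue wild type, circles are IIAEK and triangles vehicle, and the bar gives mean and SD of 3 arrays. Akp3 and Alppl2 separate the genotypes under both treatments, Abcg8 under IIAEK only and Alpi, by a narrow gap, under vehicle only.

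Across the array, 2 of 26107 features passed a Benjamini-Hochberg adjusted p under 0.05, which is 0.00766% of those tested, and both were lower in the knockout. The second was an unnamed feature listed in the files as BE199935. It had levels of -5.89, -6.72 and -5.87 in knockout and 0.34, 0.24 and 1.01 in wild type under IIAEK. It did not reach well above background in knockout mice and was at least 34.6-fold lower there (limma adjusted p = 3.19e-06). In vehicle-treated mice it was at -6.55, -6.80 and -6.32 in knockout and 1.0, 0.95 and 0.44 in wild type, with the knockout arrays at about the level they had under IIAEK. The RefSeq table gives this feature no gene, and what it measures was not analysed here.

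Below that threshold few features separated the genotypes in this test. At an unadjusted p under 0.05 there were 108 features higher (0.414%) and 235 lower (0.900%) in the knockout, while 5% would pass if no feature differed. The counts fell short of that 5%, so they do not measure how alike the genotypes were. These counts depend on the arrays used: they were 290 and 515 without wild-type replicate 3, 256 and 352 without knockout replicate 3, 224 and 307 without knockout replicate 1, and 266 and 470 with slide as a block. All 3 knockout arrays lay above all 3 wild-type arrays for 432 features (1.65%) and below them for 572 (2.19%). The median difference was -0.01, 90% of the differences lay between -0.35 and 0.36, and the median SE was 0.24. Of 140 features that differed by over 1, 63 were higher and 77 lower, and the groups of 56 of them did not overlap. Leaving out the third knockout array gave 4 calls in place of 2, and the 2 added ones were Stk25, at -1.86, and an unnamed feature listed as AK143968, at 4.06.

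**Figure D2:**
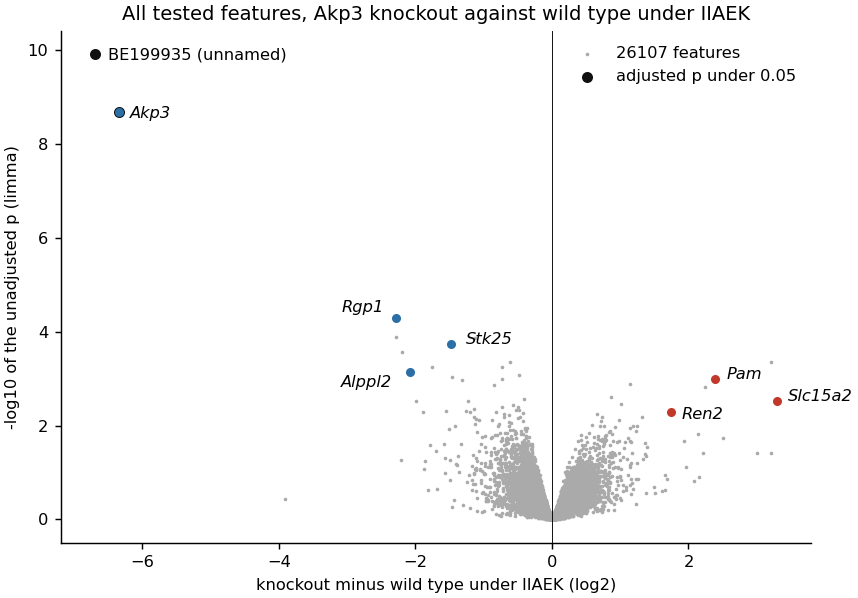
Difference of each of 26107 features (horizontal, knockout minus wild type under IIAEK, log2) against the unadjusted limma p (vertical, -log10). Akp3 and the unnamed feature BE199935 (black outline or fill) passed the adjusted threshold and stand alone at the left; labelled red and blue points are genes named in the text, above and below 0.

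The 6 arrays themselves were not alike in the tissue they held. The share of probes that stood well above background was 57.4% to 60.1% on them, and the correlation between replicates was 0.973 to 0.991. Duodenal and enterocyte identity was present on every array: 10 enterocyte marker genes averaged 7.07 to 7.59 in knockout and 7.37 to 7.66 in wild type. Marker genes of stomach and Brunner's glands (9 measured of 10) averaged -1.72, -2.08 and 5.25 in knockout and -0.91, -1.59 and 5.87 in wild type, so the third replicate of each genotype stood apart. Those 2 arrays are also the IIAEK arrays of slide 2, so that slide and stomach-gene content cannot be told apart here. Exocrine pancreas markers (10 genes) were at 9.74, 9.17 and 9.0 in knockout and 8.69, 9.22 and 9.48 in wild type. Smooth muscle markers (7 genes) were at 2.5, 2.97 and 4.39 in knockout and 3.34, 2.95 and 3.71 in wild type. Values within each slide are therefore given beside the results, and the part of tissue content in them was not tested. The vehicle groups differed in tissue content by genotype: stomach markers were at 4.26, -0.84 and -1.66 in knockout and 4.28, 4.21 and 4.56 in wild type under vehicle. Exocrine pancreas markers were at 8.11, 9.90 and 9.70 in knockout and 3.35, 9.08 and 9.4 in wild type there, and B-cell markers at -2.52, -1.86 and -2.40 in knockout and 1.62, 0.75 and -2.55 in wild type. The vehicle medians of the matching gene lists were -2.82, 1.84 and -1.17. The part of this content in the vehicle differences given below was not tested.

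Stk25, Bok, Utp14b, Ngef, Glrp1 and 2810459M11Rik, which lie within 10 Mb of Akp3 on chromosome 1, lay below wild type in the knockout. Of 119 measured genes within 10 Mb of it, the alkaline phosphatase genes left out, 6 were lower and 2 higher at an unadjusted p under 0.05, which is 5.04% and 1.68%, against 0.900% and 0.414% of all features. The groups did not overlap for 7 of them in the lower direction (5.88%, against 2.19% of all features), and the median difference of the 119 was -0.04. Elsewhere on chromosome 1, 5 of 771 genes were lower (0.649%) and 8 higher (1.04%) at that p. None of the neighbours passed the test over all features, in which the brightest probe stood for each gene. For Ecel1, which lies 0.02 Mb from Akp3, that probe differed by 0.13. Another Ecel1 probe differed by -6.70, with 0 knockout and 3 wild-type arrays well above background. With the mean of a gene's probes Ecel1 did pass (limma adjusted p = 2.44e-05), and its levels are given under Other observations.

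Stk25, the gene for a Golgi-associated kinase, had levels of 2.97, 2.66 and 3.98 in knockout and 4.62, 4.66 and 4.76 in wild type under IIAEK. Each knockout array lay below each wild-type array, and the third knockout array was closest to wild type. The difference was -1.47 (SE 0.27, limma adjusted p = 0.776), with -1.82 on slide 1, -0.78 on slide 2 and -0.40 in vehicle-treated mice. A second Stk25 probe differed by -1.62. Bok, a BCL-2 family gene that lies beside Stk25, had 2.01, 1.02 and 2.14 in knockout and 2.80, 2.98 and 2.82 in wild type, a difference of -1.15. In vehicle-treated mice its difference was -0.27, and the groups overlapped.

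Among the other neighbours, Utp14b, Ngef and 2810459M11Rik differed by nearly the same amount under both treatments. Utp14b, a retrogene copy of a ribosome assembly factor, was at -3.76, -3.42 and -3.75 in knockout and -2.58, -2.27 and -2.70 in wild type. The difference was -1.13 under IIAEK and -1.07 under vehicle. Ngef was lower by a smaller and very even amount, with 1.97, 2.17 and 2.17 in knockout and 2.86, 2.65 and 2.65 in wild type, -0.62 under IIAEK and -0.59 under vehicle. The uncharacterised gene 2810459M11Rik differed by -0.60 and -0.65 in the same order. Glrp1 reached well above background on 0 knockout arrays and 1 of 3 wild-type arrays, so no fold is given. Erfe, the gene for the iron hormone erythroferrone, was at 0.82 under IIAEK and 0.52 under vehicle, and the receptor gene Gpr35 at 0.56 and -0.11, both in dim signals.

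With the chromosome 1 neighbours included, the 15 named genes with the smallest p in each direction whose groups did not overlap spanned 0.43 to 3.29 upward and -6.34 to -0.48 downward. None of the 30 but Akp3 passed the test. The smallest adjusted p values after Akp3 were 0.435 for Rgp1, 0.705 for Cfap100 and Utp14b and 0.776 for Stk25, and the other 25 had 1. In vehicle-treated mice, which are separate animals, 10 of the 15 higher and 12 of the 15 lower genes had the same sign, 4 and 8 of them at an unadjusted p under 0.05. Over all features 53.9% had the same sign under both treatments, and 2.15% were higher and 1.71% lower under vehicle at that p.

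Rgp1, whose product is part of the exchange factor for the Golgi GTPase Rab6, had 1.77, 2.02 and 2.72 in knockout and 3.92, 4.0 and 5.44 in wild type under IIAEK. The gap between the groups was about as wide in vehicle-treated mice, with 2.32, 2.45 and 2.28 in knockout and 4.54, 4.63 and 4.43 in wild type. The differences were -2.28 (SE 0.36) under IIAEK and -2.18 under vehicle. A second, much dimmer Rgp1 probe differed by -0.15, so the probes of this gene disagree. Pam, the gene for the enzyme that amidates peptide hormones, showed the same disagreement in the upward direction. Its brighter probe was at -0.16, 0.10 and 1.37 in knockout and -2.58, -2.60 and -0.68 in wild type, a difference of 2.39 (SE 0.54), while its second probe differed by -0.15.

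Slc15a2, the gene for the kidney-type peptide transporter PEPT2, was spread widely among knockout mice. Its levels were -4.23, -0.35 and -0.47 in knockout and -5.49, -4.64 and -4.80 in wild type, a difference of 3.29 (SE 0.87). The first knockout array lay close to the wild-type arrays, and another probe of the gene past the filter on dim signals differed by 0.12. Slc15a1, which encodes PEPT1, the main peptide transporter of enterocytes, had 0.39, 0.23 and -1.97 in knockout and -0.37, -0.10 and -1.48 in wild type. These groups overlapped, with a difference of 0.20 (SE 0.59), 0.54 on slide 1 and -0.49 on slide 2.

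Ren2, a renin gene that some mouse strains carry beside Ren1, was at 0.64, -1.36 and -1.58 in knockout and -2.20, -2.20 and -3.12 in wild type. No overlap was seen between the groups, and the difference was 1.74 (SE 0.50) under IIAEK and 2.65 under vehicle. Ren1 itself was at 0.76 (SE 0.44), with dim signals, and because the 2 renin genes are near-identical their probes may share signal. Etnk2, an ethanolamine kinase gene also on chromosome 1, was at 1.25 under IIAEK and 1.82 under vehicle. The calcium-binding protein gene S100a5 was at 0.93 and 0.71 in the same order. By contrast Fam89a (0.87 under IIAEK, -0.09 under vehicle), Mpped1 (0.66 and -0.04), Nphp4 (0.79 and -0.36) and Myo1h (0.68 and -0.13) had groups that overlapped under vehicle.

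Among the lower genes Slc26a2, a sulfate transporter gene, was close under both treatments, at -0.50 under IIAEK and -0.38 under vehicle. The kinase gene Nek5 was at -1.23 and -0.36, Themis3, a gut-expressed relative of a T-cell signalling gene, at -0.52 and -0.03, and the guidance cue gene Sema6a at -0.48 and 0.04. Dimmer probes past the filter were at -0.22 and -0.48 for Slc26a2 and at -0.19 and -0.19 for Sema6a, so the Sema6a probes disagree under vehicle. Cfap100, a cilium gene, did not reach well above background in knockout mice and was at least 2.11-fold lower, with 2 of 3 wild-type arrays above background. Adam24, a metalloprotease gene known from sperm, was at least 1.42-fold lower by the same bound. The test of the difference between treatments called 0 of 26107 features (0%) with limma after adjustment, and 398 (1.52%) passed it unadjusted. Among the 30 genes above, 5 higher and 6 lower ones were in that set, with Fosl2, Adam24 and Fam89a at the smallest p. For Fosl2 this rests on the brighter of its probes. The 30 genes were chosen for a small p under IIAEK, and the IIAEK difference is part of that test. Their number in the set is raised by this choice, so it is not read as a dependence on treatment.

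**Figure D3:**
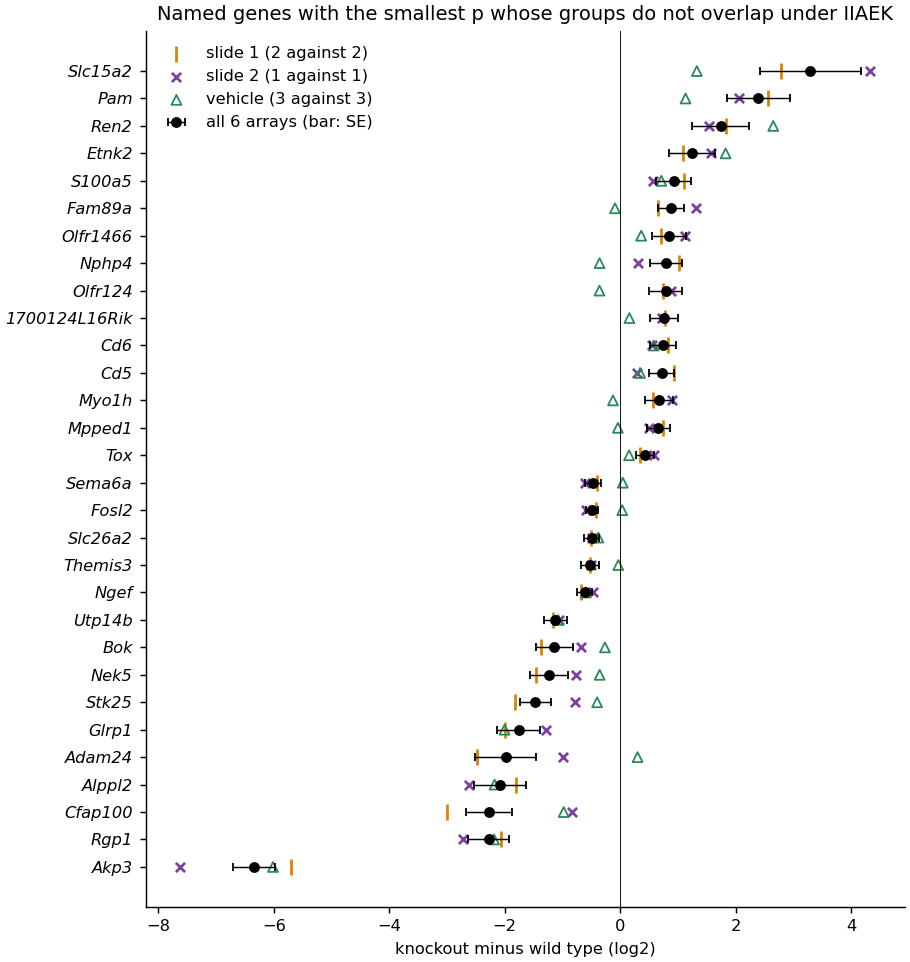
Knockout minus wild type (log2, horizontal) for the 15 higher and 15 lower named genes with the smallest p whose groups do not overlap under IIAEK. Black points with SE bars are all 6 IIAEK arrays, orange bars slide 1, purple crosses slide 2 and green triangles the vehicle-treated mice. The black point and both slides lie on the same side of 0 for all 30 genes. Choosing genes whose groups do not overlap fixes this in advance.

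Sterol transport was examined because IIAEK is described as cholesterol-lowering. Abcg5 and Abcg8 encode the partner subunits of the transporter that pumps cholesterol and plant sterols from the enterocyte back into the lumen, Npc1l1 the uptake receptor for cholesterol, and Abca1 a cholesterol exporter on the inner face of the cell. Abcg5 and Abcg8 are read in opposite directions from a shared stretch of 109 bases between their start sites. It lies at chr17:84683012-84683120 in GRCm38.p6 and is shown on the plus strand because both genes were low together, with capitals at the matches of AGATAA, the core letters read by GATA factors, on either strand.
Abcg5 and Abcg8: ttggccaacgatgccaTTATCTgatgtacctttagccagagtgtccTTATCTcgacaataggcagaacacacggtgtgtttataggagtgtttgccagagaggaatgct
The stretch held 2 matches, and 3.98% of all 32851 windows of 109 bases upstream of a start site held at least 1.

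Abcg8 had levels of 3.91, 4.03 and 4.34 in knockout and 5.17, 4.53 and 4.58 in wild type under IIAEK. The ranges of the groups were separate but close, and the first wild-type array stood above the rest. The difference was -0.66 (SE 0.23, unadjusted p = 0.0142, limma adjusted p = 1), with -0.87 on slide 1 and -0.24 on slide 2. Abcg5 had 7.53, 7.46 and 7.02 in knockout and 8.03, 8.04 and 7.51 in wild type. Its groups overlapped narrowly, since the third wild-type array fell within the knockout range, and within each slide every knockout array was below every wild-type array. The difference was -0.53 (SE 0.21, unadjusted p = 0.0320), with -0.54 on slide 1 and -0.49 on slide 2.

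The same genes in vehicle-treated mice gave -0.17 for Abcg8 and -0.01 for Abcg5. The difference between treatments was not past the test for either gene (limma adjusted p = 1), with unadjusted p values of 0.157 and 0.119. Npc1l1 had 3.68, 4.03 and 4.12 in knockout and 4.50, 4.10 and 4.14 in wild type, a difference of -0.30 (SE 0.15). Abca1 was at -0.31 (SE 0.24), and both genes overlapped between genotypes. Of 15 sterol uptake, efflux and esterification genes, 11 were below 0, Abcg5 and Abcg8 at an unadjusted p under 0.05, and the median was -0.06, against -0.01 over all features. Of all features 52.5% were below 0 and 0.900% lower at that p. The list median was -0.16 on slide 1 and -0.11 on slide 2.

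Cholesterol synthesis genes stayed near the median of all features. Of 22 measured, 14 were below 0, with a median of -0.04, and none passed the test over all features. Sc5d, which encodes a late enzyme of the pathway, was the lowest by p, with 3.18, 3.42 and 2.85 in knockout and 3.49, 3.74 and 3.5 in wild type. Its groups did not overlap, and the difference was -0.43 (SE 0.17, unadjusted p = 0.0266). Chylomicron and fat absorption genes showed a median difference of -0.04 with 15 of 20 below 0. The lipid transfer gene Mttp was at -0.36 (SE 0.21) and the apolipoprotein gene Apoa4 at -0.26 (SE 0.19). That list was at 0.02 on slide 1 and -0.37 on slide 2.

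Fatty acid oxidation and PPAR-alpha target genes were evenly split, 10 above and 12 below 0 of 22, with a median of -0.04. Ehhadh, an enzyme of peroxisomal oxidation, was at -0.36 (SE 0.17) with groups that did not overlap. The fasting hormone gene Fgf21 was near background and at -1.87 (SE 0.98). Bile acid transport genes and FXR targets showed a median difference of -0.15 with 7 of 9 below 0. This list was at 0.03 on slide 1 and -0.24 on slide 2. Abcc2, an apical export pump, was at -0.47 (SE 0.22) and Fabp6, the ileal bile acid binding protein gene, at -1.02 (SE 0.55).

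Brush border digestive enzyme genes lay slightly below wild type. Of 18 measured, 17 were below 0, the median was -0.15 and 0 passed the test over all features or an unadjusted p under 0.05. Trehalase, Treh, had 4.73, 5.06 and 5.05 in knockout and 5.47, 5.10 and 5.34 in wild type, a difference of -0.36 (SE 0.16) without overlap. Lct, the lactase gene, was at -0.45 (SE 0.28), the peptidase gene Mep1a at -0.42 (SE 0.27) and Amn, part of the vitamin B12 receptor, at -0.27 (SE 0.18). The list median was -0.16 on slide 1 and -0.39 on slide 2, and it was -0.01 without the third knockout array. The 10 enterocyte markers averaged 7.52, 7.59 and 7.07 in knockout and 7.53, 7.66 and 7.37 in wild type, so the third knockout array was also the lowest in those. Some of these markers, such as Lct, are themselves brush border enzyme genes. In whole duodenum, fewer cells of a type and less RNA per cell cannot be told apart.

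Microvillus structure genes showed a median difference of -0.07 with 11 of 16 below 0, and Pdzk1, a scaffold of apical transporters, was at -0.50 (SE 0.34). The microvillus list was at 0.01 on slide 1 and -0.20 on slide 2. Among peptide and amino acid transporter genes the median was -0.04, with 8 of 13 below 0. Slc6a20a, a proline transporter gene, was the one with an unadjusted p under 0.05. It had 2.45, 2.84 and 2.61 in knockout and 3.18, 3.23 and 3.07 in wild type. The groups did not overlap, and the difference was -0.53 (SE 0.19, unadjusted p = 0.0179), with -0.56 on slide 1, -0.47 on slide 2 and 0.33 in vehicle-treated mice.

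Sugar transport and fructose genes showed a median difference of -0.07 with 10 of 12 below 0, including G6pc, the glucose-6-phosphatase gene, at -0.50 (SE 0.32) without overlap. Calcium, phosphate and iron absorption genes showed a median difference of -0.14 with 12 of 14 below 0. Vdr, the vitamin D receptor gene, had 4.36, 4.33 and 4.36 in knockout and 4.63, 4.73 and 4.57 in wild type, and its difference was -0.30 (SE 0.15). Slc40a1, the iron exporter ferroportin, overlapped at -0.35 (SE 0.25). Vitamin A metabolism genes were split evenly, 6 above and 6 below 0, with a median of -0.19 on slide 1 and 0.14 on slide 2.

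Genes that break down extracellular nucleotides share substrates with alkaline phosphatase. Their median was -0.20, with 9 of 16 below 0. Entpd5, a nucleoside diphosphatase gene, had 2.39, 2.40 and 2.27 in knockout and 2.86, 3.08 and 2.34 in wild type, with a difference of -0.41 (SE 0.17, unadjusted p = 0.0373). Its groups overlapped through the third wild-type array, and within-slide differences were -0.58 on slide 1 and -0.07 on slide 2. Adora2b, an adenosine receptor gene, was at -0.82 (SE 0.35, unadjusted p = 0.0376). Enpp3 was at -0.42 (SE 0.29) and Entpd2 at -0.23 (SE 0.13).

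Drug metabolism genes and NRF2 targets had the lowest list median besides the alkaline phosphatases, -0.25, with 34 of 38 below 0. Ephx1, the microsomal epoxide hydrolase gene, led them with 4.19, 4.36 and 4.50 in knockout and 5.37, 5.14 and 4.49 in wild type. Replicate 3 of wild type lay at the level of the knockout ones, and the difference was -0.65 (SE 0.24, unadjusted p = 0.0180), with -0.99 on slide 1 and 0.02 on slide 2. The NRF2 targets Gclm (-0.30, SE 0.17) and Nqo1 (-0.38, SE 0.21) and the glutathione transferase gene Gsta4 (-0.25, SE 0.18) followed. The list median was -0.13 on slide 1 and -0.45 on slide 2, and it was 0.03 without the third knockout array. Under vehicle the same list showed a median difference of 0.31 with 30 of 38 above 0. Nuclear-encoded oxidative phosphorylation genes showed a median difference of -0.01 with 20 of 43 above 0. The slides lay on opposite sides, at 0.14 with 37 above 0 on slide 1 and -0.34 with 6 above 0 on slide 2.

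Cell cycle genes showed a median difference of 0.17, with 30 of 35 above 0 and none at an unadjusted p under 0.05. The replication licensing gene Mcm3 was at 0.61 (SE 0.36), the mitotic kinase gene Aurka at 0.45 (SE 0.26) and the ribonucleotide reductase gene Rrm2 at 0.37 (SE 0.23). The median was 0.05 on slide 1 and 0.46 on slide 2, and 0.00 without the third knockout array. Intestinal stem cell genes showed a median difference of 0.12 with 13 of 19 above 0. That list was at -0.08 on slide 1 and 0.35 on slide 2. Lgr5, the receptor that marks crypt base stem cells, had -0.55, -0.45 and -0.03 in knockout and -0.36, -0.71 and -1.17 in wild type. Its groups overlapped, at 0.03 on slide 1 and 1.15 on slide 2.

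**Figure D4:**
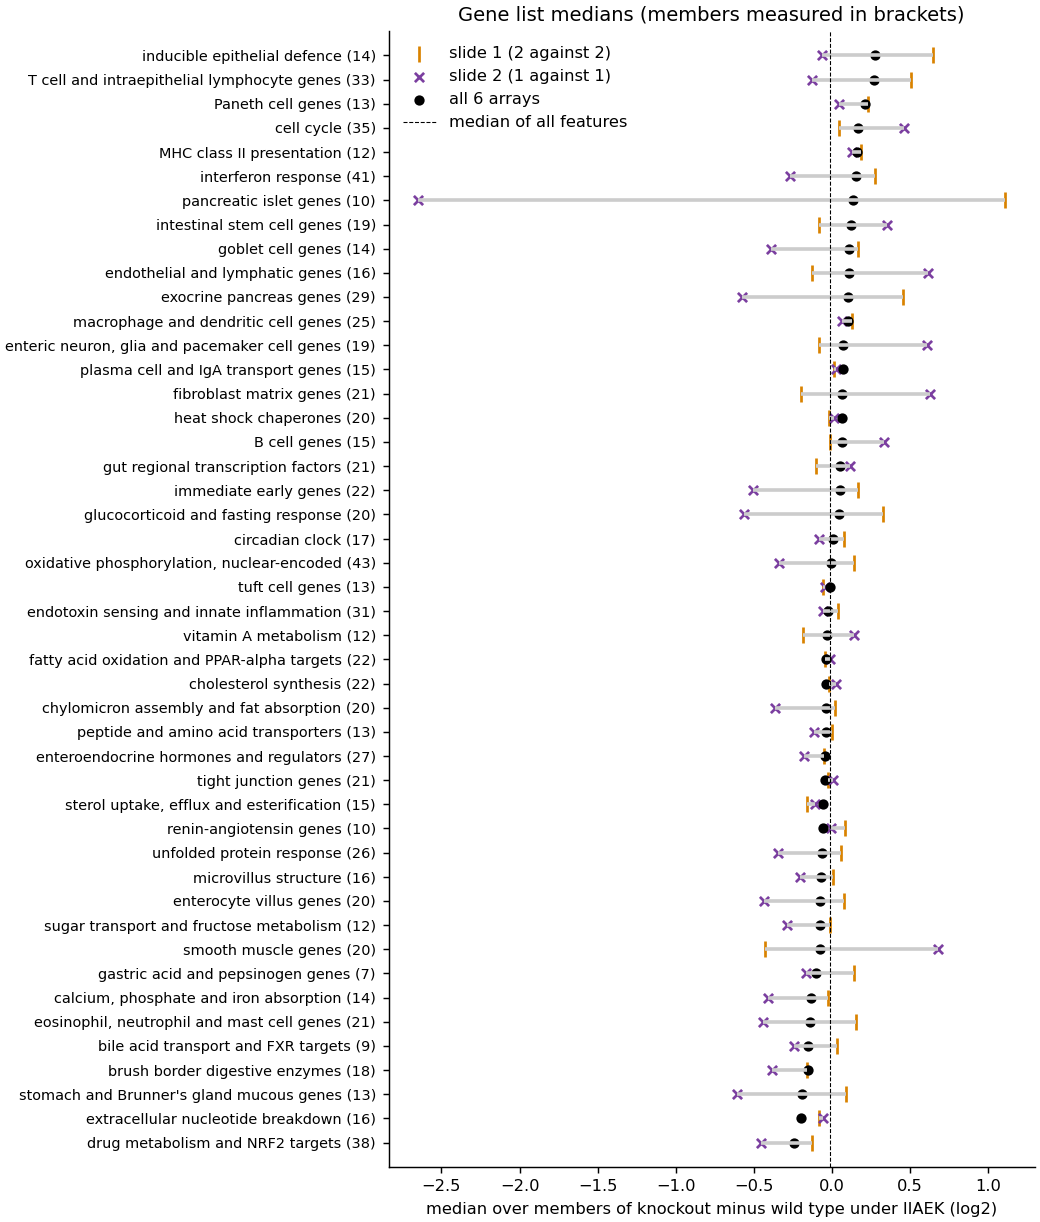
Median over each list's measured members of knockout minus wild type under IIAEK (log2). Black points are all 6 arrays, orange bars slide 1, purple crosses slide 2 and the dashed line is the median of all features; for many lists, such as interferon response and smooth muscle genes, the slides lie on opposite sides of 0.

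T-cell and intraepithelial lymphocyte genes were the immune list furthest above wild type. Of 33 measured, 28 were above 0 and the median was 0.27, against -0.01 over all features. At an unadjusted p under 0.05, 3 were higher, which is 9.09% against 0.414% of all features, and 6 had groups that did not overlap (18.2%, against 1.65%). None passed the test over all features. Cd6, a co-receptor on T cells, had 0.94, 0.97 and 0.63 in knockout and 0.20, 0.04 and 0.08 in wild type. Its difference was 0.74 (SE 0.22, limma adjusted p = 1) under IIAEK and 0.58 under vehicle.

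Cd5, a related co-receptor, had 0.18, -0.01 and -0.13 in knockout and -0.89, -0.78 and -0.43 in wild type. No overlap was seen between the groups, and the difference was 0.72 (SE 0.22), with 0.93 on slide 1 and 0.30 on slide 2. Cd8b1, a chain of the CD8 receptor of cytotoxic T cells, had 0.50, 0.12 and -0.36 in knockout and -0.67, -0.91 and -0.23 in wild type. These groups overlapped, since on slide 2 the difference was -0.13, against 1.10 on slide 1. Ccr9, the receptor that guides lymphocytes to the small intestine, was at 0.52 (SE 0.25) under IIAEK, where the groups overlapped, and at 0.52 under vehicle, where they did not. The list median was 0.50 on slide 1 and -0.13 on slide 2. In vehicle-treated mice it was 0.30, with 28 of 33 above 0.

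Interferon response genes showed a median difference of 0.15 with 33 of 41 above 0. The antiviral synthetase gene Oas1a had 4.37, 4.44 and 4.16 in knockout and 3.58, 3.96 and 4.24 in wild type, a difference of 0.40 (SE 0.18, unadjusted p = 0.0482) that was 0.64 on slide 1 and -0.07 on slide 2. Irf1 ran the other way, at -0.35 (SE 0.17). The list median was 0.27 on slide 1 and -0.27 on slide 2. Genes of MHC class II presentation showed a median difference of 0.16 with 9 of 12 above 0, and macrophage and dendritic cell genes 0.10 with 18 of 25 above 0. The scavenger receptor gene Cd163 had -0.54, -0.28 and -0.55 in knockout and -1.65, -0.80 and -0.77 in wild type, a difference of 0.62 (SE 0.36) without overlap. The complement genes C1qb (0.29), C1qa (0.35) and C1qc (0.23) stood above 0 together on both slides.

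Endotoxin sensing and innate inflammation genes are of interest because the enzyme detoxifies endotoxin, and they showed no common direction. Of 31 measured, 14 were above and 17 below 0, with a median of -0.02 and 0 at an unadjusted p under 0.05. The endotoxin co-receptor gene Cd14 was at 0.34 (SE 0.28) and Nfkb1 at -0.28 (SE 0.20). Plasma cell and IgA genes showed a median difference of 0.07. Tnfsf13b, the gene for the B-cell survival factor BAFF, had -1.78, -1.38 and -1.25 in knockout and -0.63, -0.86 and -1.02 in wild type. Its groups did not overlap, and the difference was -0.63 (SE 0.19, unadjusted p = 0.00598), with -0.83 on slide 1 and -0.24 on slide 2.

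Among eosinophil, neutrophil and mast cell genes the median was -0.14 with 8 of 21 above 0. It was 0.16 on slide 1 and -0.44 on slide 2. Far above wild type, without overlap, was 1 neutrophil gene. S100a9, a calprotectin subunit gene, had -0.39, -2.56 and -1.18 in knockout and -4.35, -4.81 and -3.96 in wild type. The difference was 3.00 (SE 1.28, unadjusted p = 0.0388), with 3.11 on slide 1 and 2.78 on slide 2. In vehicle-treated mice the levels of S100a9 ranged from -3.83 to 1.2 in knockout and from -4.21 to 0.37 in wild type, so there its groups overlapped. S100a8, the other calprotectin subunit gene, was named after its values were seen. Under IIAEK it had -1.83, -4.79 and -2.94 in knockout and -5.76, -5.63 and -4.65 in wild type, with overlap. Its probe was well above background on 2 knockout arrays and 0 wild-type arrays there. B-cell genes showed a median difference of 0.06 with 9 of 15 above 0.

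Inducible epithelial defence genes had the highest median of the 47 lists, 0.28, with 13 of 14 above 0 and 0 at an unadjusted p under 0.05. The acute-phase gene Saa3 had 0.02, -0.78 and -1.39 in knockout and -1.81, -1.69 and -1.33 in wild type, a difference of 0.89 (SE 0.42). Lcn2, which withholds iron from bacteria, was at 1.18 (SE 0.80) and Duoxa2, needed for epithelial hydrogen peroxide, at 1.16 (SE 0.72), both with overlap. Reg3a, an antibacterial lectin gene named after its value was seen, was the member below 0, at -0.49 (SE 0.56). The list median was 0.65 on slide 1 and -0.07 on slide 2. Paneth cell genes showed a median difference of 0.21 with 11 of 13 above 0; the matrilysin gene Mmp7, which processes defensins, was at 0.31 (SE 0.20).

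Goblet cell genes showed a median difference of 0.11 with 9 of 14 above 0, the mucin gene Muc2 being at 0.10 (SE 0.19). The goblet cell list was at 0.17 on slide 1 and -0.39 on slide 2. Tuft cell genes were at -0.01, with 5 of 13 above 0. Tight junction genes showed a median difference of -0.04 with 8 of 21 above 0. Cgn, the cingulin gene, had 2.81, 3.16 and 3.17 in knockout and 3.42, 3.29 and 3.30 in wild type, and its difference was -0.29 (SE 0.13, unadjusted p = 0.0488) without overlap. Cldn23, a claudin gene, was at 0.32 (SE 0.19) without overlap. Of 27 enteroendocrine genes 17 were below 0, with a median of -0.04.

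Stress and timing genes held single members that separated the genotypes, while their list medians over the 6 IIAEK arrays stayed near that of all features. Fosl2, an AP-1 transcription factor gene, had 2.77, 2.77 and 2.71 in knockout and 3.22, 3.17 and 3.31 in wild type. The groups did not overlap and the arrays of each lay close together. The difference was -0.48 (SE 0.11, unadjusted p = 8.29e-04), with -0.43 on slide 1, -0.60 on slide 2 and 0.03 under vehicle. A second, dimmer Fosl2 probe differed by -0.76 under IIAEK and by -1.07 under vehicle, so the probes of this gene disagree under vehicle. Its partner gene Jun had 3.33, 3.30 and 3.11 in knockout and 3.84, 3.54 and 3.63 in wild type, a difference of -0.42 (SE 0.13, unadjusted p = 0.00801) under IIAEK and -0.29 under vehicle. Btg2 was at -0.39 (SE 0.19), also without overlap, yet 13 of the 22 immediate early genes were above 0 and the list median was 0.05. That median was 0.17 on slide 1 and -0.51 on slide 2.

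Zbtb16, a glucocorticoid-induced transcription factor gene, had 1.03, 0.90 and 0.84 in knockout and 1.38, 1.36 and 2.22 in wild type. Both groups stood apart, and the difference was -0.73 (SE 0.27, unadjusted p = 0.0198) under IIAEK and -0.58 under vehicle. Fkbp5, another classic glucocorticoid target, was at 0.67 (SE 0.29), with 1.15 on slide 1 and -0.31 on slide 2. The 20 genes of the glucocorticoid and fasting list showed a median difference of 0.04, with 0.33 on slide 1 and -0.56 on slide 2. Heat shock chaperone genes (median 0.07), unfolded protein response genes (-0.06) and clock genes (0.01) stayed near the median of all features. Among clock genes the repressor gene Nfil3 had -0.38, 0.15 and 0.36 in knockout and 0.99, 0.52 and 1.08 in wild type, a difference of -0.82 (SE 0.37) without overlap.

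**Figure D5:**
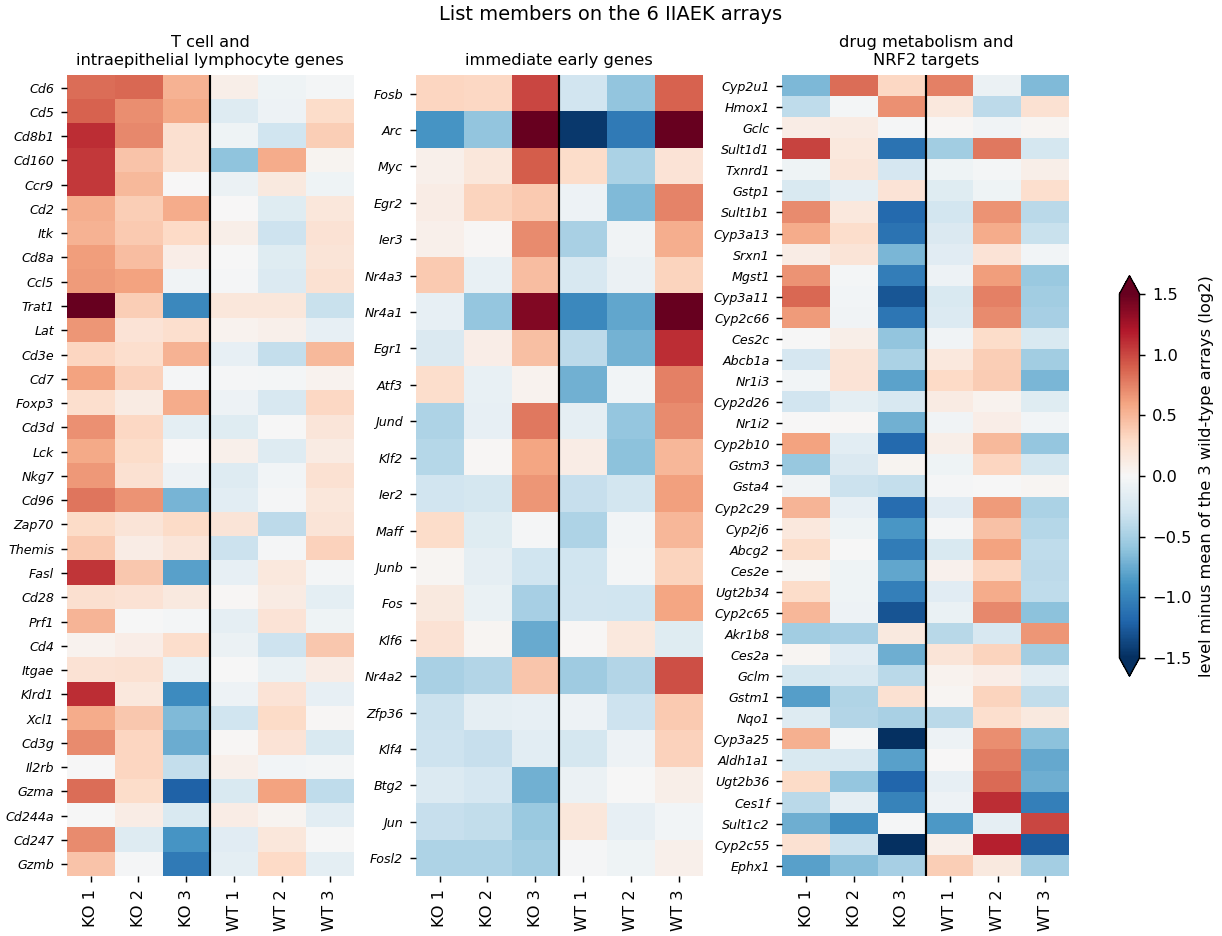
Level of each member of 3 lists on the 6 IIAEK arrays minus the mean of the 3 wild-type arrays (log2, colour scale), with the 3 knockout arrays left of the line and members ordered by difference. Most T-cell genes are red on the first 2 knockout arrays, Fosl2 and Jun are blue on all 3, and many drug metabolism genes are darkest blue on the third knockout array.

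Genes of other tissues varied mainly between replicates. Smooth muscle genes showed a median difference of -0.08 with 4 of 20 above 0, at -0.43 on slide 1 and 0.68 on slide 2. Fibroblast matrix genes were at 0.07, with -0.20 on slide 1 and 0.63 on slide 2, and exocrine pancreas genes at 0.10, with 0.46 and -0.58. Stomach and Brunner's gland mucous genes showed a median difference of -0.19; Gkn2, a gastric surface cell gene, had -6.40, -5.25 and 7.81 in knockout and 0.97, -1.88 and 8.80 in wild type. Of the enteric neuron and glia genes, the glial gene S100b had -1.27, -1.17 and -1.16 in knockout and -0.92, -0.95 and -0.78 in wild type, a difference of -0.32 (SE 0.12, unadjusted p = 0.0241) without overlap and with the same sign on both slides. Gut regional transcription factor genes showed a median difference of 0.05; Hnf4a was at -0.21 (SE 0.13) and Gata6 at -0.21 (SE 0.13).

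Part of the features that separated the genotypes under IIAEK did so in the vehicle-treated mice too. Of the 108 features higher at an unadjusted p under 0.05 under IIAEK, 66 (61.1%) were above 0 under vehicle, against 54.6% of all features. At that p, 20 were also higher under vehicle, which is 18.5% of the IIAEK list, against 2.15% of all features. The same 20 are 3.57% of the vehicle list, against 0.414% of all features higher under IIAEK. Of the 235 lower features, 159 (67.7%) were below 0 under vehicle, against 45.4% of all features. At an unadjusted p under 0.05, 39 were also lower there, 16.6% of the IIAEK list, against 1.71% of all features. These 39 are 8.74% of the vehicle list, against 0.900% of all features lower under IIAEK. A further 8 features passed on opposite sides. Of the 432 higher and 572 lower features whose groups did not overlap under IIAEK, 49 and 78 did not overlap in the same direction under vehicle. The share of all features without overlap under vehicle was not counted, so these 2 counts have no background beside them. The arrays of the 2 treatments are separate mice, but they share slides and one estimate of the spread.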

How the data were processed

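Duodenal RNA of 12 mice was measured on one-colour Agilent arrays. The scanner files hold, per the file headers, a processed intensity per spot (Feature Extraction 10.7.3.1), background-subtracted but not scaled between arrays, with raw and background intensities and other columns of marks for spots well above background. The authors' deposited table of log2 values, whose making is not stated, matched log2 processed intensity minus each array's 75th percentile, centred per probe (correlation at least 0.9999957 on every array); its direction and log2 scale are thereby known, while a probe's level is lost. Its column medians were 0.12, -0.04 and 0.08 for knockout and -0.06, 0.04 and 0.06 for wild type under IIAEK. Headers give an older genome build than the RefSeq table (GRCm38.p6), which served for names, promoter sequences and neighbourhood only.

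Control spots and 22 outlier-marked probes were left out, spots averaged and the 75th percentile subtracted. Accessions named 32978 of 56583 probes. A probe was kept where some group had it well above background in all 3 of its arrays, and the brightest stood for a gene, which left 26107 features (15583 named). The 4 group means were estimated jointly from the 12 arrays in R 4.3.3 using limma 3.58.1 (lmFit, eBayes with trend, two-sided, Benjamini-Hochberg over all features), and checked on simulated data. Lists are described by counts and medians. The number of arrays limits precision, and no spot was saturated; whether replicates are separate litters or cages is not given, so p-values measure the spread between these samples. The members, the 47 gene lists and the tests were chosen with earlier results of these data known. Named are the alkaline phosphatase genes, called features, the 15 higher and 15 lower named genes with the smallest unadjusted p under 0.05 and groups that do not overlap, up to 4 members of a list by p, neighbours within 10 Mb of Akp3 with an unadjusted p under 0.05, and Npc1l1, Abcg5, Abcg8, Abca1 and Slc15a1; others are said to be chosen after their values were seen. Alternatives were scaling, background correction, the deposited table, probe filters, probe choice, samples, trend, slide, replicate number and left-out arrays, and 1 added after seeing the data.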

Additional observations from a re-analysis of the deposited data

How the results depend on the processing

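The number of features called was 2, both lower, and the same number under quantile normalization, median shift, normexp background correction, the deposited table, no filter on dim probes, a fit of the 6 IIAEK arrays alone, no intensity trend and slide as a block. It was 3 with the mean of a gene's probes and 0 under a filter that asks for signal above background in each of the 6 IIAEK arrays, which removes Akp3 and BE199935 themselves; 73 higher and 207 lower features had an unadjusted p under 0.05 there. It was 8 within slide 1, 14 within slide 2 and 8 without both stomach-gene-rich arrays, a setting chosen after seeing the data; within slide 2 each genotype has 1 IIAEK array, assumed to vary like the vehicle groups. Leaving out each array in turn gave 2 to 4, with Slc15a2 added without the first knockout array and Stk25 and AK143968 without the third. The difference between treatments called 0 features, except 35 within slide 2. Akp3 was called in every setting that tested it, from -7.62 (within slide 2) to -3.63 (normexp, which raises dim signals). With the replicate block the count was again 2, that for the difference 0, and Akp3 -6.34 (adjusted p = 5.33e-04). Same-numbered arrays deviated together with correlations of 0.04, 0.47 and 0.70, and unlike-numbered ones had -0.72 to 0.65, so the numbers do not pair the samples. The third replicates, both on slide 2, did deviate together (0.70). With replicates 1 and 2 of the other genotype they had -0.72 to -0.27. Over lists and alternatives, 901 list medians stayed within the spread between arrays and 39 moved beyond it; for the genes named, 12 values passed the threshold under an alternative where they did not before, and 9 changed sign without passing it. Part of the 901 was fixed in advance. The fit of the 6 IIAEK arrays alone, no intensity trend, slide as a block and the replicate block cannot move a list median in this design. Most lists took the opposite sign under some alternative. Without the third knockout array the drug metabolism median was 0.03 against -0.25, the brush border median -0.01 against -0.15 and the cell cycle median 0.00 against 0.17. The cause was not tested. Of features with an unadjusted p under 0.05, 31.5% were higher, against 21.3% under normexp and 48.8% with no filter on dim probes, and 28.0% to 44.9% when an array was left out. Signals near background, such as those of Akp3 in knockout arrays, limit fold changes to bounds.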

Other observations

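Ecel1, an endopeptidase gene of the nervous system that lies next to Akp3 on chromosome 1, gave unlike values with its probes; it was noticed after the values were seen. The probe that stood for the gene, brighter on average over all arrays, was at -2.23, -2.08 and -1.95 in knockout and -2.21, -2.32 and -2.12 in wild type under IIAEK. A second Ecel1 probe was at -6.60, -6.93 and -6.63 in knockout and -0.44, -0.21 and 0.60 in wild type. It did not reach well above background in knockout mice and was at least 23.6-fold lower there, and under vehicle it was between -7.13 and -6.54 in knockout and between -0.09 and 0.29 in wild type. With the mean of a gene's probes, Ecel1 differed by -3.29 (limma adjusted p = 2.44e-05).

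Genes that were not described above, picked after their values were seen, had an unadjusted p under 0.05 and the same sign under both treatments. Bcl6, a transcriptional repressor of the immune response, was at -0.63 under IIAEK and -1.10 under vehicle. Prim2, a DNA primase subunit gene, was at -1.88 and -1.25, Gdf9, known as an oocyte growth factor gene, at -1.12 and -1.01, and Banp at -0.63 and -1.55. Plin5, a lipid droplet coat gene, was at 0.80 and 0.75. None of these passed the test over all features under IIAEK (limma adjusted p = 1).

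Ppy, the pancreatic polypeptide gene, was at -0.62, 0.19 and -4.11 in knockout and -1.04, -1.33 and 1.44 in wild type under IIAEK. The third replicates of the 2 genotypes thus lay at opposite ends.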
